A study of Mus musculus with 2 samples.

Results

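Collagen genes were taken from 2 microarrays of embryonic mouse ureters as every non-control probe whose gene name is Col, a number, the letter a and a number. The rule found 61 probes of 41 genes among the 31870 genes on the array, and 35 of the 41 genes were among the 20503 genes that passed the detection filter. The study compared ureters of NMRI mouse embryos at E14.5 between a conditional knockout of Gata2, a zinc finger transcription factor gene, and controls. Each array carried 1 control RNA and 1 RNA labelled Gata2cKO, so there were 4 RNAs in all, coupled to the dyes Alexa Fluor 555 and Alexa Fluor 647. The control genotype was Tbx18(+/+);Gata2(fl/?), in which the second Gata2 allele is not stated. The Gata2cKO genotype was Tbx18(cre/+);Gata2(fl/fl), so Cre was present in this group only and 1 Tbx18 allele differed between the groups as well. Cre expressed from Tbx18 is known to act in the mesenchymal cells around the ureter and not in the epithelium inside the tube. On array 1 both RNAs were female and the Gata2cKO RNA carried 647. On array 2 both were male and the Gata2cKO RNA carried 555, so sex and dye cannot be told apart. The labels do not say how many embryos gave each RNA.

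Collagens are proteins of 3 chains wound into a triple helix, which needs a glycine as the first of every 3 residues. Fibrillar collagens build the tensile cables of connective tissue, and FACIT collagens (fibril-associated collagens with interrupted triple helices) decorate the surface of those cables. Basement membrane collagens form the sheet under epithelia and around smooth muscle and vessels, beaded-filament collagens form microfibrils near cells, and a cartilage group (types II, IX, X and XI) cuts across the fibrillar, FACIT and network classes. In the ureter, mesenchymal cells make most of the fibrillar matrix around a smooth muscle coat and an epithelial lining.

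The glycine repeat can be read in the probes themselves. Of the 61 collagen probes, 2 lie wholly in such a repeat, with an open reading frame and glycine at each of the 6 positions where the repeat calls for it. They are shown 5′ to 3′ with the glycine codons in capitals, at mm9 chr4:47283786-47283845 for Col15a1 and mm9 chr3:130270497-130270556 for Col25a1.
Col15a1: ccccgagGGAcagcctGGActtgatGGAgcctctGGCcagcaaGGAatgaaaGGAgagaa
Col25a1: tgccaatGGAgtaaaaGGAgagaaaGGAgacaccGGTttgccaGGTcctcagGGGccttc
The other probes hold no such uninterrupted stretch. Probes were not assigned to exons or UTRs, since no gene annotation of mm9 was used.

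The targeted gene did not read lower in the RNA labelled Gata2cKO. For the Gata2 probe the log2 ratio was 0.33 (array 1) and 0.54 (array 2), or 0.44 on average (limma adjusted p = 0.410). Which exons the floxed allele loses is not stated in the labels, so the probe may lie outside the deleted part and then checks nothing.

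No collagen gene passed the limma test at an adjusted p of 0.05 (0 of 35, against 0.0878% of all genes tested). At an unadjusted p under 0.05, 3 collagens were higher in the Gata2cKO RNA (Col22a1, Col23a1 and Col4a1; background 3.76%) and 3 were lower (Col9a1, Col12a1 and Col2a1; background 3.41%). On both arrays, 13 of 35 collagens were lower, or 37.1% against 26.2% of all genes. On both arrays, 9 of 35 were higher, or 25.7% against 27%, a share near the background. Just 1 collagen, Col9a1, differed by at least 1.5-fold in the same direction on both arrays (2.86% against 0.712%). By contrast, 3 collagens, Col1a1, Col1a2 and Col3a1, differed by at least 1.5-fold in opposite directions (8.57% against 1.17%). In the fit by probe, 0 of 50 tested collagen probes passed the adjusted p in limma (background 0.0585%), the lowest being 0.0740. At an unadjusted p under 0.05, 3 of these probes were higher (background 3.69%) and 6 were lower (background 3.4%), where probes of 1 gene are not independent.

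**Figure D1:**
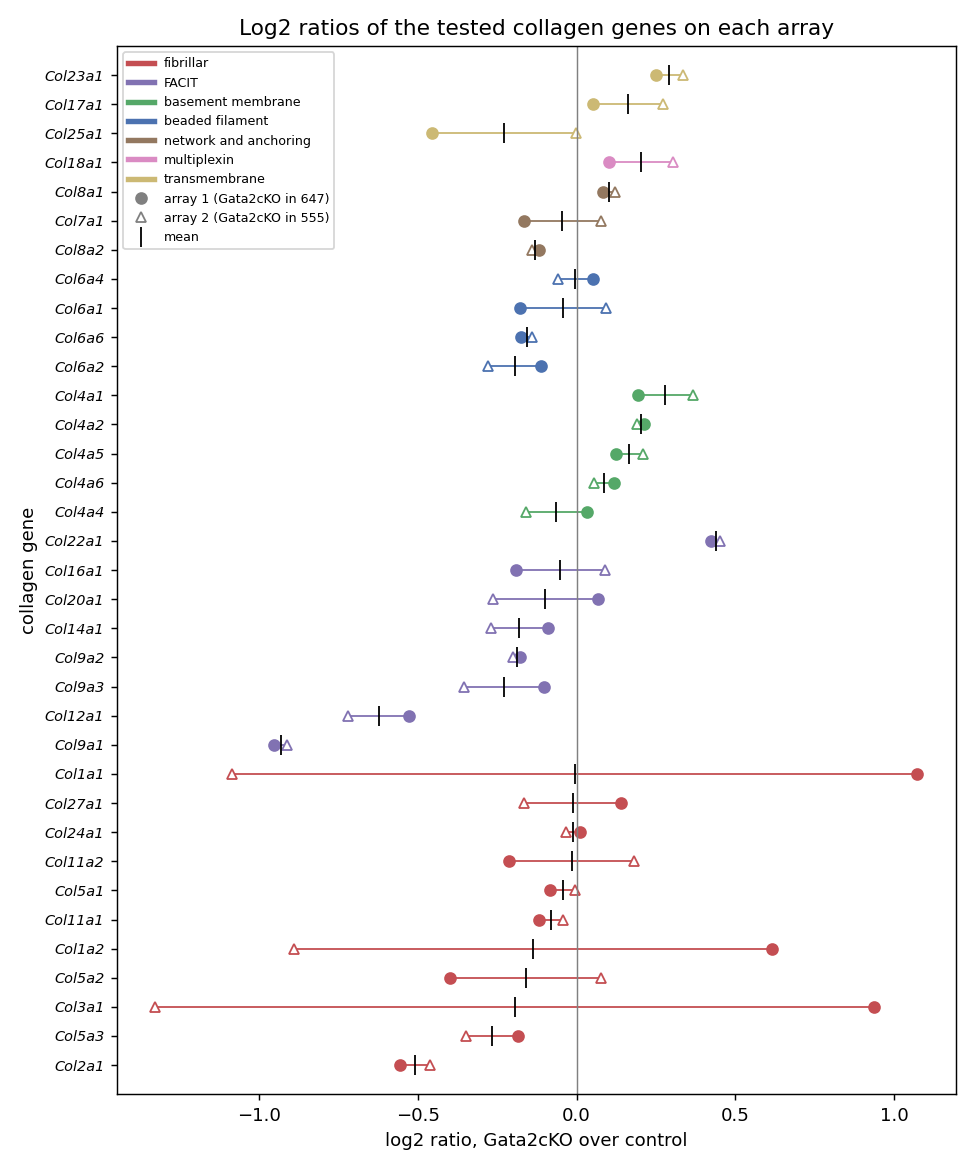
Log2 ratio of Gata2cKO over control for each of the 35 tested collagen genes, grouped and coloured by class. Filled circles are array 1, open triangles array 2, and black bars their mean. Col9a1, Col12a1 and Col2a1 lie left of 0 on both arrays, Col22a1 lies right of 0 on both, and Col1a1, Col1a2 and Col3a1 span 0 widely.

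The classes differed in the direction of their members. All counts by class use the brightest probe of each gene. Of 5 tested basement membrane collagens, 4 were higher and 0 lower on both arrays. Their median log2 ratio was 0.17 (0.12 on array 1 and 0.19 on array 2). By their other tested probes, however, Col4a4 and Col4a6 were lower on both arrays. Of 8 tested FACIT collagens, 1 was higher and 5 were lower, with a median of -0.18 (-0.14 and -0.27). The 6 tested cartilage collagens had a median of -0.21 (-0.19 and -0.28), with 0 higher and 5 lower on both arrays. The 11 fibrillar collagens had a median of -0.081 (-0.084 and -0.16), with 0 higher and 4 lower. The 4 beaded-filament collagens had a median of -0.10 (-0.14 and -0.099), with 0 higher and 2 lower. Of the lower ones, Col6a6 had opposite signs on the arrays by its other tested probe. Over all genes tested the median was 0.00285, with 27% higher and 26.2% lower on both arrays. Over all 35 collagens the median was -0.0508. In the authors' deposited table the basement membrane, FACIT and beaded-filament medians had the opposite sign (-0.13, 0.065 and 0.048), and the fibrillar and cartilage medians the same sign (-0.057 and -0.050). The differences between classes were not tested, because classes of a few genes each share the same 2 arrays.

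Among the FACIT collagens the largest ratio belonged to Col9a1, which codes for the alpha 1 chain of type IX collagen, a coat of type II collagen fibrils in cartilage and the vitreous of the eye. Its log2 level was 15.37 and 15.27 in the control RNAs of arrays 1 and 2 and 14.41 and 14.36 in the Gata2cKO RNAs. Both Gata2cKO values were below both control values. The share of all genes whose groups do not overlap was not determined, so a lack of overlap, here and below, shows no difference by itself. Col5a1, with ratios of -0.08 and -0.0037, had none either. The log2 ratio was -0.95 (array 1) and -0.91 (array 2), with an average of -0.93 ± 0.03 (SD, n = 2 arrays; 95% interval -1.19 to -0.67), or 1.91-fold lower, with a limma adjusted p of 0.0714. That p moved to 0.0220 with the scanner software's processed signals, 0.0455 with no filter on detection and 0.000950 with a trended, robust variance prior, so the side of the threshold depends on the setting. Over the alternatives tried, the adjusted p of Col9a1 ranged upward from 0.000950 to values near 1.

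The array holds 2 probes for Col9a1, and they gave different ratios. The probe reported above lies at mm9 chr1:24259125-24259184 on the plus strand. The other, at mm9 chr1:24201545-24201604, read -0.02 on array 1 and -0.09 on array 2 (mean -0.057). It was far dimmer, with log2 levels of 7.67 and 7.63 in the controls and 7.64 and 7.54 in the Gata2cKO RNAs. Whether its low signal flattened its ratio was not tested. With the mean of both probes the gene's ratio was -0.49. The gap of 0.87 between the probes was the widest among the 11 collagens with more than 1 tested probe, and the probe starts are 57580 bases apart. RefSeq (GRCm38.p6) lists 2 start sites for Col9a1, 17593 bases apart, as the gene is known to be transcribed from a long-form and a short-form promoter. Which transcript each probe reads was not determined. The 250 bases before each start are shown because the probes disagree, 5′ to 3′ on the plus strand, with the 30 bases next to the start in capitals.
Upstream start, GRCm38.p6 chr1:24177360-24177609: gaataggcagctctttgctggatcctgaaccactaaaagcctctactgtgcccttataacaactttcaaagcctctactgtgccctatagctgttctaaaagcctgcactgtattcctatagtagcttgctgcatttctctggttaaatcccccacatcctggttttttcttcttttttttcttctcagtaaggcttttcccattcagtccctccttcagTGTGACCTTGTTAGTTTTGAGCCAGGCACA
Downstream start, GRCm38.p6 chr1:24194953-24195202: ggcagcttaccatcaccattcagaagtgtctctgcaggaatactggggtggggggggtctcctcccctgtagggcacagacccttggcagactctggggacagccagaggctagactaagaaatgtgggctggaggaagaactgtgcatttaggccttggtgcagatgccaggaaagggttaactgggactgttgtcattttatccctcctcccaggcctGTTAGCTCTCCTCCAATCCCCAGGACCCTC
The first has a GC content of 43.6% and the second of 56%. Neither 300-base window, from 250 before to 50 after the start, held a GATA motif (AGATAA or the variant AGATAG, or with a first T the motif TGATAA or the variant TGATAG, on either strand), which 29.8% of 32851 RefSeq promoter windows and 6 of 36 windows of collagen genes held. The 36 windows belong to 33 of the 41 collagens. Both Col9a1 windows also lacked TATAAA (13.6% of all windows, 5 of 36 collagen windows), ACAATG (12.6%, 1 of 36) and GGGCGG (35.7%, 22 of 36). A match or its absence describes these letters only.

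The partner chains of type IX collagen showed smaller ratios than the Col9a1 probe. Col9a2, the alpha 2 chain, had log2 ratios of -0.18 and -0.20 (mean -0.19 ± 0.02, SD, n = 2 arrays; limma adjusted p = 0.790). Col9a3, the alpha 3 chain, had -0.10 and -0.35 (mean -0.23; limma adjusted p = 0.768). The ratio of Col9a1 lay below that of Col9a2 by 0.78 and 0.71 and below that of Col9a3 by 0.85 and 0.56 on arrays 1 and 2, and these differences between genes were not tested.

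Col12a1 codes for type XII collagen, a FACIT of tendon, fascia and other load-bearing connective tissue. Its log2 level was 13.47 and 13.65 in the controls and 12.94 and 12.93 in the Gata2cKO RNAs, with no overlap between the groups. The ratio was -0.53 and -0.72, a mean of -0.62 ± 0.13 (SD, n = 2 arrays; 95% interval -0.90 to -0.34), or 1.54-fold lower, with a limma adjusted p of 0.202, and 0.00725 with the trended, robust prior. Over the alternatives its adjusted p ranged upward from 0.00725 to values near 1. Col14a1, which codes for the related type XIV collagen of dermis and tendon, had -0.09 and -0.27 (limma adjusted p = 0.812). Its other tested probe had -0.42 and -0.25 (mean -0.34; limma adjusted p = 0.596 in the fit by probe).

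Col22a1 was the FACIT collagen with a higher level in the Gata2cKO RNA on both arrays. It codes for type XXII collagen, known from tissue junctions such as the muscle-tendon junction. Its log2 level was 9.19 and 9.20 in the controls and 9.61 and 9.65 in the Gata2cKO RNAs, with no overlap. The ratio was 0.42 and 0.45, a mean of 0.44 ± 0.02 (SD, n = 2 arrays; 95% interval 0.18 to 0.70), or 1.35-fold, with a limma adjusted p of 0.352. In the authors' deposited table its log2 ratios were 1.39 and 1.44. Col16a1, the type XVI chain of smooth muscle and dermis, had -0.19 and 0.09, and Col20a1 had 0.07 and -0.26. The groups overlapped for Col16a1, at 15.74 and 15.52 in the controls and 15.55 and 15.61 in the Gata2cKO RNAs.

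**Figure D2:**
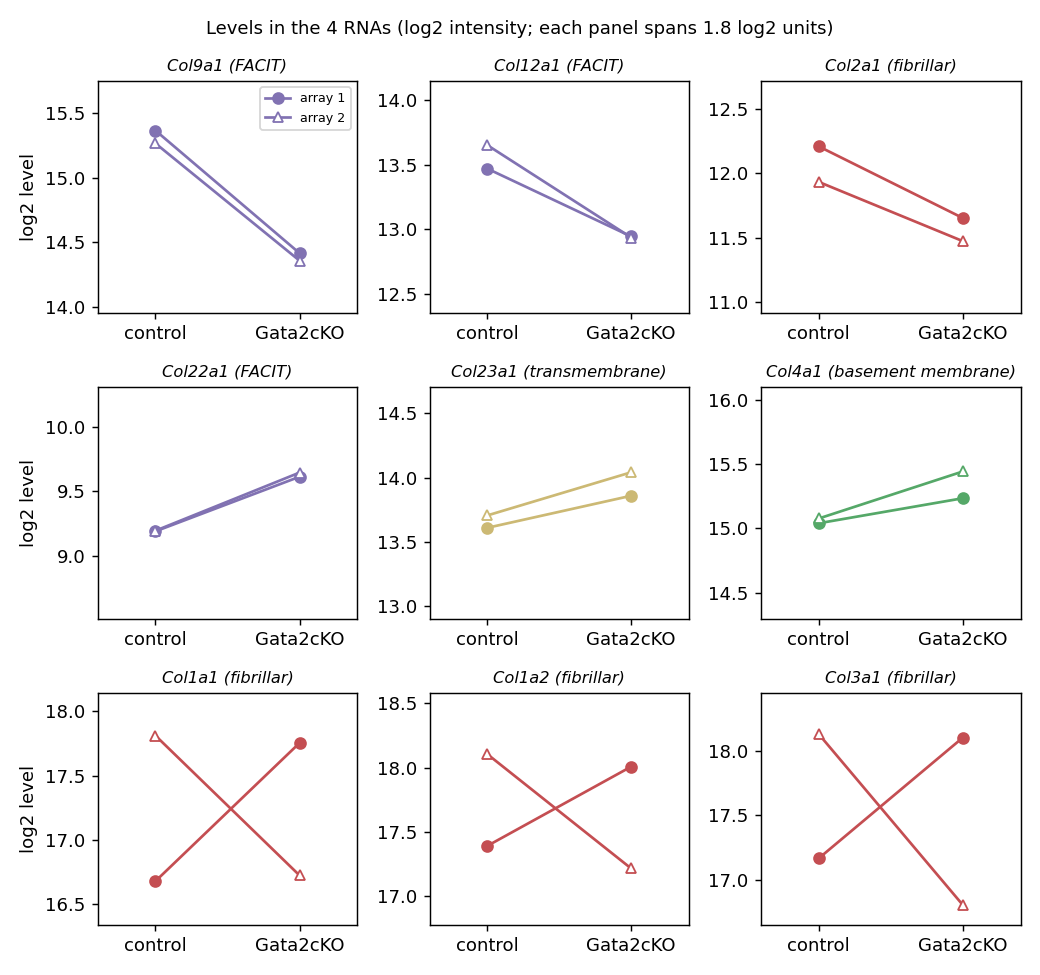
Log2 level, after normalization within and between arrays, of 9 collagens in the control and the Gata2cKO RNA of array 1 (filled circles) and array 2 (open triangles), with lines joining the RNAs of 1 array. Each panel spans 1.8 log2 units. On both arrays the lines fall for Col9a1, Col12a1 and Col2a1 and rise for Col22a1, Col23a1 and Col4a1, and they cross for Col1a1, Col1a2 and Col3a1.

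The fibrillar class held 1 collagen at an unadjusted p under 0.05. Col2a1 codes for type II collagen, the main fibril of cartilage. Its log2 level was 12.21 and 11.93 in the controls and 11.65 and 11.47 in the Gata2cKO RNAs, with no overlap between the groups. The ratio was -0.56 and -0.46, a mean of -0.51 ± 0.07 (SD, n = 2 arrays; 95% interval -0.77 to -0.24), or 1.42-fold lower, with a limma adjusted p of 0.258, and 0.0301 with the trended, robust prior. Its adjusted p ranged upward from 0.0301 to values near 1 over the alternatives. In the authors' deposited table Col2a1 was lower on array 1 and higher on array 2 (-0.92 and 0.22). The type XI chains, which join type II fibrils, gave -0.12 and -0.04 for Col11a1 and -0.21 and 0.18 for Col11a2.

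The major fibrillar collagens of connective tissue gave opposite ratios on the arrays. Col1a1, the alpha 1 chain of type I collagen, had a log2 level of 16.68 and 17.81 in the controls and 17.75 and 16.73 in the Gata2cKO RNAs. The groups overlapped, and on each array the RNA in 647 was the higher of the pair. The ratio was 1.07 (array 1) and -1.09 (array 2), averaging -0.0061 ± 1.53 (SD, n = 2 arrays; 95% interval -1.16 to 1.15; limma adjusted p = 0.999). Col1a2, the alpha 2 chain, had levels of 17.39 and 18.11 in the controls and 18.01 and 17.22 in the Gata2cKO RNAs, and ratios of 0.62 and -0.89 (mean -0.14; limma adjusted p = 0.984). Col3a1, the chain of type III collagen found with type I in elastic tissue, had 17.17 and 18.13 in the controls and 18.10 and 16.80 in the Gata2cKO RNAs, and ratios of 0.94 and -1.33 (mean -0.19; limma adjusted p = 0.986). All 3 were higher in 647 on both arrays, by 1.08, 0.75 and 1.13 log2 units for Col1a1, Col1a2 and Col3a1 when averaged over the arrays. Female embryos were on array 1 and male embryos on array 2, so a difference between sexes and one between dyes cannot be told apart. Among the brightest genes tested, those above the 0.75 quantile of brightness, 58.1% of 5126 had opposite signs on the arrays, against 43.1% of the other 15377. The collagens among those bright genes had opposite signs in 5 of 13 cases, and the other collagens in 8 of 22. The 95% interval of each of these 3 genes takes in a difference of 1.5-fold in either direction.

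**Figure D3:**
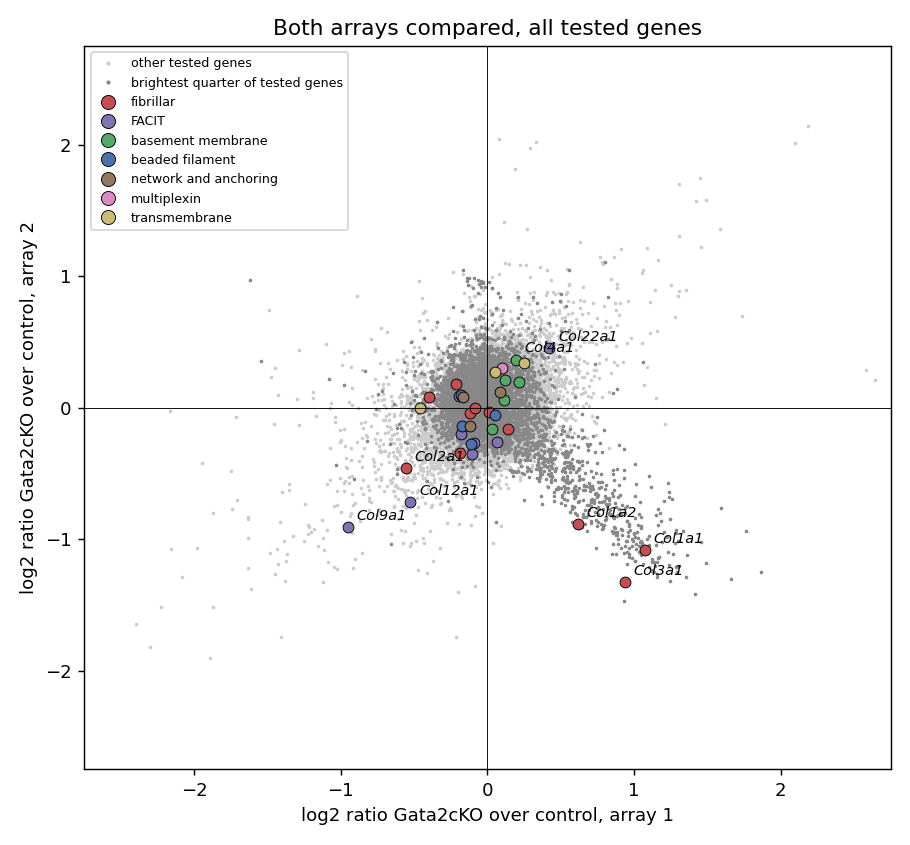
Log2 ratio of Gata2cKO over control on array 1 (horizontal) against array 2 (vertical) for all 20503 genes tested, with genes above the 0.75 quantile of brightness in darker grey and the 35 collagens coloured by class. Col9a1, Col12a1 and Col2a1 lie at the lower left. Col1a1, Col1a2 and Col3a1 lie at the lower right. Darker points were drawn over lighter ones.

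The other fibrillar collagens had smaller ratios. Col5a3, a type V chain, had -0.18 and -0.35 (mean -0.27; limma adjusted p = 0.701), and Col5a1, the type V chain that starts fibril assembly, had -0.08 and -0.0037. Col5a2 had -0.40 and 0.08, and its gene lies beside Col3a1 on chromosome 1. Neighbours on the chromosome thus differed in their pattern over the arrays, since Col3a1 was higher on array 1 and Col5a2 on array 2. Col24a1 (0.01 and -0.03) and Col27a1 (0.14 and -0.16), of fibrillar types known mainly from bone and cartilage, had means of -0.012 each.

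The basement membrane collagens were the class with most members higher on both arrays. Col4a1 and Col4a2 code for the alpha 1 and alpha 2 chains that form the common type IV network in all basement membranes. The log2 level of Col4a1 was 15.04 and 15.08 in the controls and 15.23 and 15.44 in the Gata2cKO RNAs, with no overlap between the groups. Its ratio was 0.19 and 0.37, a mean of 0.28 ± 0.12 (SD, n = 2 arrays; 95% interval 0.0051 to 0.55), or 1.21-fold, with a limma adjusted p of 0.681. Col4a1 is the collagen with 10 spots on each array, whose ratios had an SD of 0.041 on array 1 and 0.028 on array 2, so the spread between the arrays was larger than the spread between spots. Col4a2 had levels of 14.00 and 14.13 in the controls and 14.22 and 14.32 in the Gata2cKO RNAs, again with no overlap. Its ratio was 0.21 and 0.19 (mean 0.20 ± 0.02, SD, n = 2 arrays; limma adjusted p = 0.768). The genes are divergent neighbours whose RefSeq start sites lie 21 bases apart, and their ratios differed by -0.02 on array 1 and 0.17 on array 2.

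The chains of the specialised type IV networks were measured less evenly. Col4a5 and Col4a6, a second divergent pair on the X chromosome with starts 1343 bases apart, had ratios of 0.12 and 0.21 (Col4a5) and 0.12 and 0.05 (Col4a6). Col4a5 had a limma adjusted p of 0.820 and Col4a6 of 0.947. The other tested Col4a6 probe had -0.06 and -0.02. Col4a4 had 0.03 and -0.16 by its brightest probe and -0.28 and -0.33 by its other tested probe, a gap of 0.24 between their means. Col4a3, the partner of Col4a4 in mature kidney and lung, was well above background in 0 of 4 RNAs and was not tested. In the authors' deposited table Col4a1 and Col4a2 were higher on both arrays (means 0.60 and 0.66), while Col4a5 and Col4a6 had means of -0.13 and -0.20. The class median there was -0.13, of opposite sign to 0.17 from the scanner files.

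Beaded-filament collagens, the chains of type VI collagen that surround muscle cells and fibroblasts, had small ratios. Col6a2 had levels of 11.65 and 11.76 in the controls and 11.53 and 11.48 in the Gata2cKO RNAs, with no overlap, and a ratio of -0.11 and -0.28 (limma adjusted p = 0.795). Its neighbour on chromosome 10, Col6a1, had 16.29 and 16.12 in the controls and 16.11 and 16.21 in the Gata2cKO RNAs, which overlapped, and a ratio of -0.18 and 0.09. Col6a6 had -0.17 and -0.14 by its brightest probe. Its other tested probe had -0.34 and 0.0024 and was not well above background in the Gata2cKO RNA of array 1. Col6a4 had 0.05 and -0.06. Its mean of -0.0035 turned to 0.045 when processed signals were used and to 0.0036 under median centring. The alpha 3 chain is on the array under a transcript identifier outside the naming rule, and that probe had -0.10 and 0.02. A probe of the alpha 2 chain under such an identifier had -0.07 and 0.08.

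The remaining classes each had 1 to 3 tested members. Among transmembrane collagens, Col23a1 was higher in the Gata2cKO RNA, with levels of 13.61 and 13.71 in the controls and 13.86 and 14.04 in the Gata2cKO RNAs and no overlap. Its ratio was 0.25 and 0.34, a mean of 0.29 ± 0.06 (SD, n = 2 arrays; 95% interval 0.029 to 0.56), or 1.22-fold, with a limma adjusted p of 0.643. Its 3 probes gave means from 0.17 to 0.29, all positive, and in the authors' deposited table the ratios were 0.83 and 1.45. Col17a1, the hemidesmosome collagen of basal epithelial cells, had 0.05 and 0.27. Col25a1, a collagen of neurons that is also needed for motor axons to reach muscle, had levels of 11.26 and 10.56 in the controls and 10.80 and 10.56 in the Gata2cKO RNAs, which overlapped. Its ratio was -0.46 and -0.0019, and its 4 probes ranged from -0.29 to 0.06. The lowest mean of these was that of the probe with the glycine repeat shown above, at -0.36 on array 1 and -0.23 on array 2.

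Col18a1, a multiplexin of basement membranes that releases endostatin, had levels of 14.94 and 15.04 in the controls and 15.05 and 15.35 in the Gata2cKO RNAs. The groups did not overlap, but the lowest Gata2cKO value and the highest control value lay close together. Its ratio was 0.10 and 0.30 (mean 0.20; limma adjusted p = 0.790). Of the network-forming type VIII collagen, made by smooth muscle and endothelial cells, Col8a1 had levels of 7.85 and 7.84 in the controls and 7.93 and 7.96 in the Gata2cKO RNAs. Col8a2 had 14.71 and 14.69 in the controls and 14.59 and 14.55 in the Gata2cKO RNAs. By the brightest probe of each, neither gene's groups overlapped. The ratios were opposite in sign on both arrays, at 0.08 and 0.12 for Col8a1 and -0.12 and -0.14 for Col8a2. This contrast was absent from the authors' deposited table, with 1.07 and -0.60 for Col8a1 and 0.22 and 0.05 for Col8a2. Nor did the other tested Col8a2 probe show it, with ratios of -0.43 and 0.06 and overlapping levels. Limma adjusted p was 0.929 for Col8a1 and 0.876 for Col8a2. Col7a1, the anchoring fibril collagen under stratified epithelia, had -0.17 and 0.08.

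Of the 41 collagens, 6 were not tested for lack of signal. Col13a1, Col19a1, Col28a1 and Col4a3 were well above background in 0 of 4 RNAs. Col15a1 was so in 1 of 4, the Gata2cKO RNA of array 2, and Col10a1, the type X collagen of hypertrophic cartilage, in 2 of 4, both on array 1. All 35 tested collagens were well above background in all 4 RNAs, so no ratio above is a bound.

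Lists of genes that act on collagen had median log2 ratios from -0.089 to 0.052. None of them held a gene past an adjusted p of 0.05 in limma (background 0.0878%). For the counts of all these lists that rest on both arrays, the background was 27% (higher) and 26.2% (lower). Of 22 chain modification and folding genes, 2 were higher and 10 lower on both arrays and the median log2 ratio was -0.089. At an unadjusted p under 0.05 in limma there were 0 higher (background 3.76%) and 1 lower (background 3.41%). That gene was Plod2, the lysyl hydroxylase of telopeptides that sets the kind of crosslink, with -0.51 and -0.53 (limma adjusted p = 0.242). P4ha2, a prolyl hydroxylase subunit, had a mean of -0.26, and P3h4, which acts with lysyl hydroxylase in the endoplasmic reticulum, and P4ha1 had means of 0.30 and 0.057. Of 5 crosslinking enzymes, 2 were higher and 1 was lower on both arrays (median 0.014). The lower one was Loxl1, a lysyl oxidase relative needed for elastic fibres, with -0.41 and -0.56 (limma adjusted p = 0.314). Loxl4 and Loxl3 had means of 0.25 and 0.014.

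Of 11 tested secretion and propeptide processing genes, 3 were higher and 4 lower on both arrays (median -0.045, but -0.12 on array 1 and 0.053 on array 2), with 0 at an unadjusted p under 0.05 in limma. Adamts2, which removes the amino-terminal propeptide of fibrillar collagens, had a mean of -0.23, and Sec24d, a coat protein of large collagen carriers, of -0.19. Pcolce2, an enhancer of carboxy-terminal cleavage, had 0.15, and Mia3, the export receptor for procollagen, 0.062. Of 10 tested breakdown genes, 0 were higher and 4 lower on both arrays (median -0.061), with 0 at an unadjusted p under 0.05 in limma. The membrane-anchored protease Mmp16 (-0.23) and the inhibitor Timp4 (-0.19) were the lowest of those with the same sign on both arrays. The list mixes proteases with their inhibitors, so its median and counts give no direction of breakdown. Of 8 tested genes on the receptor list, 3 were higher and 0 lower (median 0.052). Ddr2, a receptor tyrosine kinase for fibrillar collagens, had 0.19 and 0.40 (limma adjusted p = 0.672) and was the 1 gene of the list at an unadjusted p under 0.05. Osbpl1a (mean 0.077) stood on that list in error, as it codes for an oxysterol-binding protein.

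**Figure D4:**
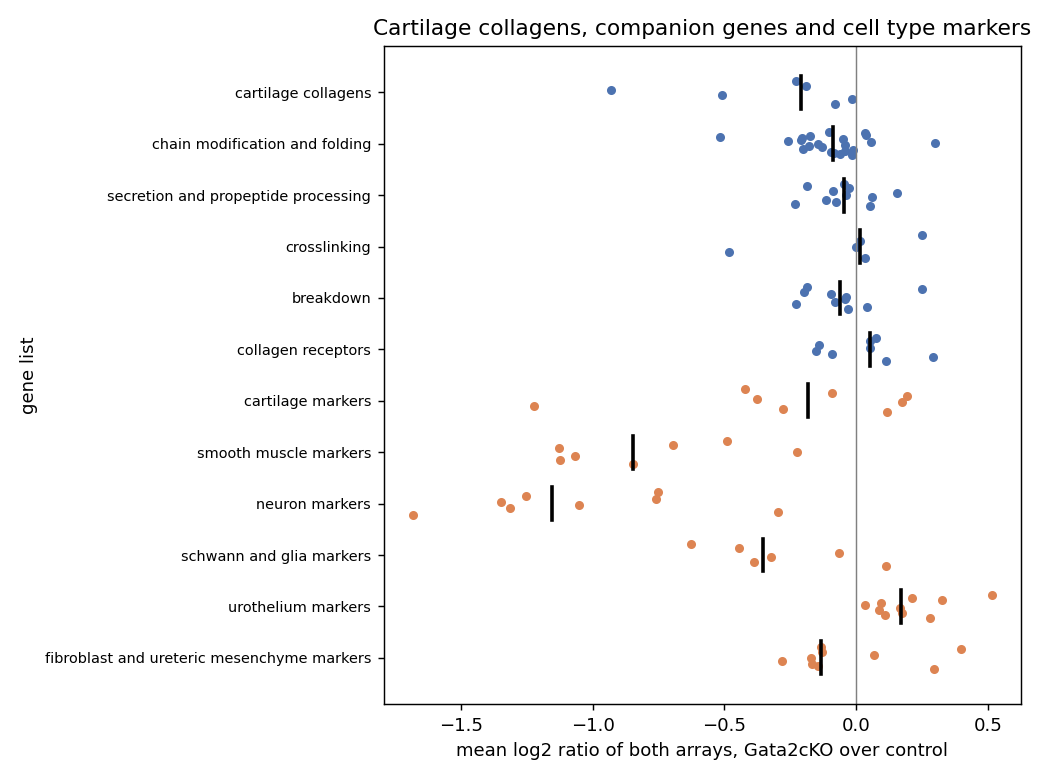
Mean log2 ratio of both arrays, Gata2cKO over control, for each tested gene (points) of 12 gene lists, with the median of each list as a black bar. Blue marks collagens and genes that act on collagen, and orange marks cell type markers. The smooth muscle and neuron markers lie furthest left, with medians of -0.85 and -1.15.

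Markers of other cell types are given beside the collagens. Of all the marker lists, 1 gene passed the adjusted p in limma (background 0.0878%), and their part in the collagen ratios was not tested. The shares to set beside the counts of every marker list are 27% of all genes higher and 26.2% lower on both arrays. In RNA from whole ureters, fewer cells of a type and less RNA per cell cannot be told apart. For the lower cartilage collagens the cartilage markers are the nearest list. Of 15 cartilage markers on the array, 8 were tested, and 2 of these were higher and 4 lower on both arrays (median -0.18). Epyc, a small proteoglycan of growth cartilage, had -1.12 and -1.33 (limma adjusted p = 0.0503), and Sox9, the regulator of cartilage that is also active in epithelia and glia, had -0.51 and -0.34 (limma adjusted p = 0.410). Hapln1 and Chad had means of 0.18 and 0.12. The defining cartilage genes Comp, Matn1, Matn3, Prg4, Snorc and Ucma were well above background in 0 of 4 RNAs and Acan, the main cartilage proteoglycan, in 1 of 4. The summed log2 level of the tested cartilage markers was 16.59 and 16.31 in the controls and 16.49 and 16.66 in the Gata2cKO RNAs, which overlapped.

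Smooth muscle markers were lower on both arrays in 7 of 7 genes (median -0.85), and their summed log2 level was 15.57 and 15.71 in the controls and 15.02 and 14.81 in the Gata2cKO RNAs. Neuron markers were lower in 8 of 8 (median -1.15), with sums of 14.88 and 14.38 in the controls and 13.54 and 13.38 in the Gata2cKO RNAs. The gene past the adjusted p was Prph, a filament of peripheral neurons (limma adjusted p = 0.0380). Schwann and glia markers were lower on both arrays in 4 of 6 (median -0.36), with sums of 13.91 and 13.82 in the controls and 13.53 and 13.63 in the Gata2cKO RNAs. Lower on both arrays too were macrophage markers in 6 of 6 (-0.37) and skeletal muscle markers in 4 of 5 (-0.79). For the higher basement membrane collagens, urothelium markers were higher on both arrays in 6 of 10 (median 0.17, sums 17.48 and 17.70 in the controls and 17.70 and 17.79 in the Gata2cKO RNAs), mesothelium markers in 2 of 4 (0.14) and endothelium markers in 1 of 7 (-0.0012). The mesothelium sums were 16.16 and 16.37 in the controls and 16.22 and 16.44 in the Gata2cKO RNAs, and the endothelium sums 16.36 and 16.25 against 16.22 and 16.29. For the fibrillar collagens, fibroblast and ureteric mesenchyme markers were higher on both arrays in 2 of 9 and lower in 3 of 9 (-0.13). Their summed level was 19.12 and 19.40 in the controls and 19.31 and 18.92 in the Gata2cKO RNAs. Sums were formed on the linear scale, so bright genes weigh most in them. Dcn had the widest spread between arrays on this list (0.63 and -0.92), and its share of the sum was not determined. Nephron and duct markers were mixed, with 3 of 7 higher and 2 of 7 lower on both arrays and a median of 0.14, between Ret at -0.71 and Six2 at 0.66. Bone markers had a median of 0.092 over 4 genes.

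Several of these marker medians rested on 1 array or turned sign in the authors' deposited table. For urothelium markers the medians were 0.34 (array 1) and 0.062 (array 2), against -0.041 from the authors' deposited table. That of fibroblast and ureteric mesenchyme markers was -0.016 and -0.061 on the single arrays and 0.25 in the authors' deposited table. That of nephron and duct markers was 0.034 and 0.31, and -0.21 in the authors' deposited table, and that of endothelium markers -0.18 and 0.017, and 0.16 in that table. The bone median was 0.20 (array 1) and -0.022 (array 2), and the cartilage marker median -0.087 and -0.20. The smooth muscle, neuron, Schwann and glia, macrophage and skeletal muscle medians were below 0 on each array and in the authors' deposited table.

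The authors' deposited table gave a mean ratio of the same sign for 19 of the 35 tested collagens (54.3%), against 66% of all genes tested. Its columns for the arrays had opposite signs for 23 of 35 collagens (65.7%), against 56.8% of all genes. Col9a1 was lower on both arrays in the authors' deposited table (-1.08 and -1.09), as was Col12a1 (-0.14 and -0.69). Col1a1 (1.18 and -0.84) and Col3a1 (0.87 and -1.28) were of opposite sign there too. The FACIT median in the authors' deposited table was 0.065 and the cartilage collagen median -0.050, against -0.18 and -0.21 from the scanner files.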

How the data were processed

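Total RNA of ureters was amplified, coupled to dyes through amino allyl groups and hybridised to 2-colour Agilent arrays, per the labels' protocols. Per the file headers and the submitters' processing notes, the scans were read with Agilent Feature Extraction 10.7.3.1, and probe coordinates are on mm9. The deposited scanner files give mean spot signals and local backgrounds as intensity on a linear scale without normalization, together with processed signals and, per the file headers, their log10 ratio of red over green. The authors' deposited table gives, from its values, a signed fold score per probe with a median of 1 on both arrays. Neither its scale nor its centring is stated in the labels or files. Its direction was taken from its correlation with the scanner ratios over all non-control probes, detected or not (0.442 on array 1 and 0.377 on array 2). That correlation is low, so the table served as an alternative only (log2 of the fold, sign kept).

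Local background was removed by normexp (offset 50), and ratios were normalized within arrays by loess (span 0.3). Control spots and spots with an outlier flag (255 and 178) were left out, and no spot was saturated (0 and 0). Spots of a probe were averaged and array 2 was turned, so that both ratios run Gata2cKO over control. Probes were kept if both control channels or both Gata2cKO channels were well above background (25654 of 39429), and each gene was represented by its brightest probe. Across the 4 RNAs, from 66% to 69.4% of the spots were well above background. The median signal was 433 and 428 in 555 and 754 in 647 on both arrays. Log2 levels of single RNAs come from loess followed by Aquantile between arrays. Names follow a RefSeq table of GRCm38.p6, which matched 26412 probes and 58 of the 61 collagen probes. Ratios were tested against 0 with limma 3.58.1 in R 4.3.3, with Benjamini-Hochberg adjustment over all 20503 genes, or over all probes. The 2 arrays left 1 residual degree of freedom, to which eBayes added a prior of 4.68 (prior SD 0.163). The variance behind each p-value thus weighs the spread pooled over all genes more than the gene's own spread between these arrays. The number of arrays limits the precision. The fit was tested on simulated data.

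All collagens were named, with values in every RNA for those at an unadjusted p under 0.05, for the largest ratio of the same sign on both arrays in each class and direction, and for the brightest of each class. Of the lists of genes acting on collagen, the 2 largest in each direction were named. The collagen members, classes, companion lists and cell type marker lists were chosen with earlier results of these data known. Alternatives were processed signals, median centring, no detection filter, the mean over a gene's probes, a trended and robust prior, the deposited table, and each array alone.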

Additional observations from a re-analysis of the deposited data

Results flagged for a closer look

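The ratio of 3 fibrillar collagens ran in opposite directions in the female and the male pair of RNAs. Col1a1 was at 1.07 on the log2 scale on array 1 (female) and at -1.09 on array 2 (male). Col1a2 was at 0.62 on array 1 and at -0.89 on array 2. Col3a1 was at 0.94 on array 1 and at -1.33 on array 2. Each sex had 1 array, so the difference between the sexes was not tested, and dye cannot be told apart from sex. Each of these probes was higher in the RNA that carried 647, on both arrays.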

How the results depend on the processing

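The count of collagens past an adjusted p of 0.05 in limma was 0, and it became 1 with the scanner software's processed signals, 1 with no detection filter and 3 with a trended and robust prior. It stayed at 0 with median centring, the mean over probes and the deposited table. The count at an unadjusted p under 0.05 went from 3 to 1 higher with median centring and from 3 to 5 lower with the mean over a gene's probes. The cause was not tested. In the authors' deposited table the medians were -0.13 for basement membrane, 0.065 for FACIT, 0.048 for beaded-filament, 0.13 for network and anchoring, 0.028 for multiplexin, -0.0037 for transmembrane and -0.050 for cartilage collagens, and 0.023 for chain modification, 0.21 for crosslinking and 0.023 for breakdown. Median centring gave -0.14 for beaded-filament collagens, -0.0036 for crosslinking and -0.093 for breakdown, and no filter gave -0.042 for breakdown. With 1 array left out, medians ran from -0.16 to -0.084 for fibrillar, from -0.14 to -0.099 for beaded-filament and from -0.28 to -0.19 for cartilage collagens, from -0.17 to -0.086 for chain modification, from -0.012 to 0.0089 for crosslinking, from -0.081 to -0.065 for breakdown, from -0.12 to 0.053 for secretion and processing and from -0.044 to 0.055 for receptors. The sign of the mean turned in the deposited table for 16 collagens, to 0.18 for Col11a1, 0.19 for Col16a1, -0.0037 for Col17a1, 0.17 for Col1a1, 0.020 for Col1a2, 0.11 for Col20a1, 0.059 for Col27a1, -0.13 for Col4a5, -0.20 for Col4a6, 0.18 for Col5a1, 0.16 for Col6a1, 0.12 for Col6a4, 0.070 for Col7a1, 0.13 for Col8a2, 0.15 for Col9a2 and 0.016 for Col9a3. Col6a4 also turned with processed signals (0.045) and median centring (0.0036). With 2 arrays, ratios within the spread between them had no settled direction.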
